A study of Homo sapiens with 12 samples.

Results

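SR proteins, hnRNPs and the kinases that phosphorylate SR proteins form the core set of regulators that decide which exons of a pre-mRNA are kept. A set of 36 such genes was chosen by name from these protein families, with earlier results of these data known. Their transcripts were followed in OVCAR8 cells. The genes are 13 SR proteins (SRSF1 to SRSF11, TRA2A and TRA2B), 16 hnRNPs and 7 splicing kinases (CLK1 to CLK4, SRPK1, SRPK2 and DYRK1A). They are 36 of the 26485 genes counted, and all 36 were among the 14865 genes tested. OVCAR8 is an established human ovarian cancer cell line, and all groups were grown in RPMI medium with serum, with no other treatment named. Cells received vehicle (control), 150 nM EC359, a small-molecule inhibitor of the leukemia inhibitory factor receptor, 100 nM trametinib, a MEK inhibitor, or both agents (combination) for 7 h, and polyadenylated RNA was sequenced from 3 libraries per group. The replicates are not stated to be separate cultures, so the p-values below measure the spread between these libraries, which may be technical.

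SR proteins bind exonic enhancers through RNA recognition motifs and recruit the spliceosome through an arginine and serine rich domain, whereas many hnRNPs bind silencers and oppose exon inclusion. SRPK kinases phosphorylate SR proteins in the cytoplasm so that they enter the nucleus, and the CLK kinases phosphorylate them further within nuclear speckles, which releases them to sites of transcription. Many of these genes control their own output by splicing a poison exon or keeping an intron, which sends the transcript to nonsense-mediated decay or holds it in the nucleus, and in cancer cells several SR proteins act as oncogenes.

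The promoters of 3 CLK kinase genes and of SRSF5 are shown because these transcripts had some of the widest ranges between treatments described below, and because each holds the core motif of the cyclic AMP response element (CRE), to which the ATF and CREB factors bind. The sequences are the 250 bases before the annotated start in RefSeq on GRCh38.p14, read in the direction of the gene, and capitals mark this CRE core (TGACG, or CGTCA on the other strand). CLK1 is shown from chr2:200864659-200864908 on the minus strand, CLK3 from chr15:74615586-74615835 on the plus strand, CLK4 from chr5:178627051-178627300 on the minus strand and SRSF5 from chr14:69766892-69767141 on the plus strand.
CLK1: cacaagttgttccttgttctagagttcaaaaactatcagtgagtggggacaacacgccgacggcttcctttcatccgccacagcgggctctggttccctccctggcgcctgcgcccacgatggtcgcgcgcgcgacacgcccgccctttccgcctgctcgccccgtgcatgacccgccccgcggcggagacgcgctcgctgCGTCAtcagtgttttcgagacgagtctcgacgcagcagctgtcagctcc
CLK3: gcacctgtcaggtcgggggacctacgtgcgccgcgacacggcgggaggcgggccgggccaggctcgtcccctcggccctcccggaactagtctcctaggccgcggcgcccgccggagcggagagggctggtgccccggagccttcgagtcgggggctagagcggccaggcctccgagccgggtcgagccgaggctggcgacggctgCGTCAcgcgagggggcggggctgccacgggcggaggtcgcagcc
CLK4: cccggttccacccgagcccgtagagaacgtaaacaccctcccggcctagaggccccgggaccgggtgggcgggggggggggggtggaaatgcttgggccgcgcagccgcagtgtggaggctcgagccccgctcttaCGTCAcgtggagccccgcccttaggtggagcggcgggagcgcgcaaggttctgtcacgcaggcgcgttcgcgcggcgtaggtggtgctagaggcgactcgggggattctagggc
SRSF5: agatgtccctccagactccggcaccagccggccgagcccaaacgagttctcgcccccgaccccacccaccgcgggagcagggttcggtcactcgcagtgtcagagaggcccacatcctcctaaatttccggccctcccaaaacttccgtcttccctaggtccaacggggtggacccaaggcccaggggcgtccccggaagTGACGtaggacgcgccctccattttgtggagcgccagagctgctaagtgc
The last base of the CRE core lay 45 bases before the start in CLK1, 40 in CLK3, 110 in CLK4 and 46 in SRSF5. CLK1 and CLK3 have 2 annotated starts each. The same core lay 142 bases before the other CLK1 start, and the other CLK3 window held no CRE core. The annotation used by the authors starts CLK1 at chr2:200864744, so that there the core lies after the start. Searched on both strands, TGACG occurred in 21.2% of all 35116 RefSeq windows of this length and in 41.1% of the 56 windows of the 33 members that have one, including members that were not called against control, such as HNRNPU. The 3 CLK genes were called against control with a log2 change of at least 0.5. SRSF5 stayed under that limit, at -0.43 with EC359 and 0.41 in the combination. Further members that reached it are not shown. Of these, SRSF7, SRSF11 and DYRK1A had a window with the CRE core, and SRSF6, SRSF8 and SRPK1 had none. The ETS site CCGGAAGT occurred in 3.42% of all windows and in those of SRSF4, SRSF5 and HNRNPD, and the AP-1 site TGANTCA in 6.57% of all windows and in 1 window of DYRK1A. SRSF2, TRA2A and HNRNPA1 had no window. These matches are descriptions of the letters and not of binding.

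The deposited values are estimated counts per gene, and each library held between 24790392 and 32467283 of them. Levels are given as CPM (counts relative to the library size after TMM scaling) and, where genes are compared with each other, as RPKM (CPM per kilobase of the exons annotated by the authors). A gene was called when its adjusted p was under 0.05 in the quasi-likelihood test of edgeR, adjusted over all 14865 genes by Benjamini-Hochberg. All 11 MEK and ERK output genes, such as SPRY4, ETV5 and CCND1, were at least 2-fold lower with trametinib than in control, and all 11 were at least 2-fold lower in the combination than with EC359 alone. Against control, the combination had 10 of them lower, 9 by at least 2-fold, and EGR1 higher (log2 0.30). EC359 also moved this list: with EC359 alone 9 were higher than in control and 1 lower, and 5 changed at least 2-fold. In the combination 9 were higher than with trametinib and 1 lower, and 6 changed at least 2-fold. Of 10 markers of ovarian epithelial carcinoma 7 were above 3 counts in every library, whereas MUC16 and KRT19 were at or near 0 and CDH1 reached 0.564 CPM at most. The leukocyte markers PTPRC and CD3E were at 0 in all libraries. Of 4 fibroblast markers, DCN was at 0, and COL1A1 was the 1 above 3 counts in all libraries. In bulk RNA, fewer cells that express a gene and less of its RNA per cell cannot be told apart.

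In control the most abundant transcripts per length were those of hnRNPs, and the least abundant those of kinases. HNRNPA1, which binds splicing silencers and shuttles mRNA out of the nucleus, had the highest level of all members at 726 ± 26.8 RPKM (SD, n = 3), against 37.9 RPKM for HNRNPR, the lowest hnRNP. Among SR proteins SRSF9 was highest at 255 ± 3.70 RPKM (SD, n = 3) and SRSF8, an intronless retrocopy of SRSF2 that is found in primates, was lowest at 9.23 ± 0.507 RPKM (SD, n = 3). Among the kinases SRPK1 led at 28.9 ± 0.811 RPKM (SD, n = 3), and CLK3, CLK1, SRPK2, CLK4 and DYRK1A lay between 13.7 and 4.22 RPKM. CLK2 was listed at 2.5 to 165 counts, and its level was carried by single libraries. It stood at 5.89, 0.190 and 0.471 CPM in control, 0.0845, 0.336 and 0.0788 CPM with EC359, 0.156, 3.19 and 0.324 CPM with trametinib and 0.160, 2.98 and 0.150 CPM in the combination. The annotation used by the authors places exons of CLK2 also on 1 alternate contig, and the part of that in its level was not tested. CLK2 did not pass edgeR's test in any of the 6 comparisons, where its lowest unadjusted p was 0.12, and DESeq2 called it lower with EC359 (adjusted p = 0.036).

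**Figure D1:**
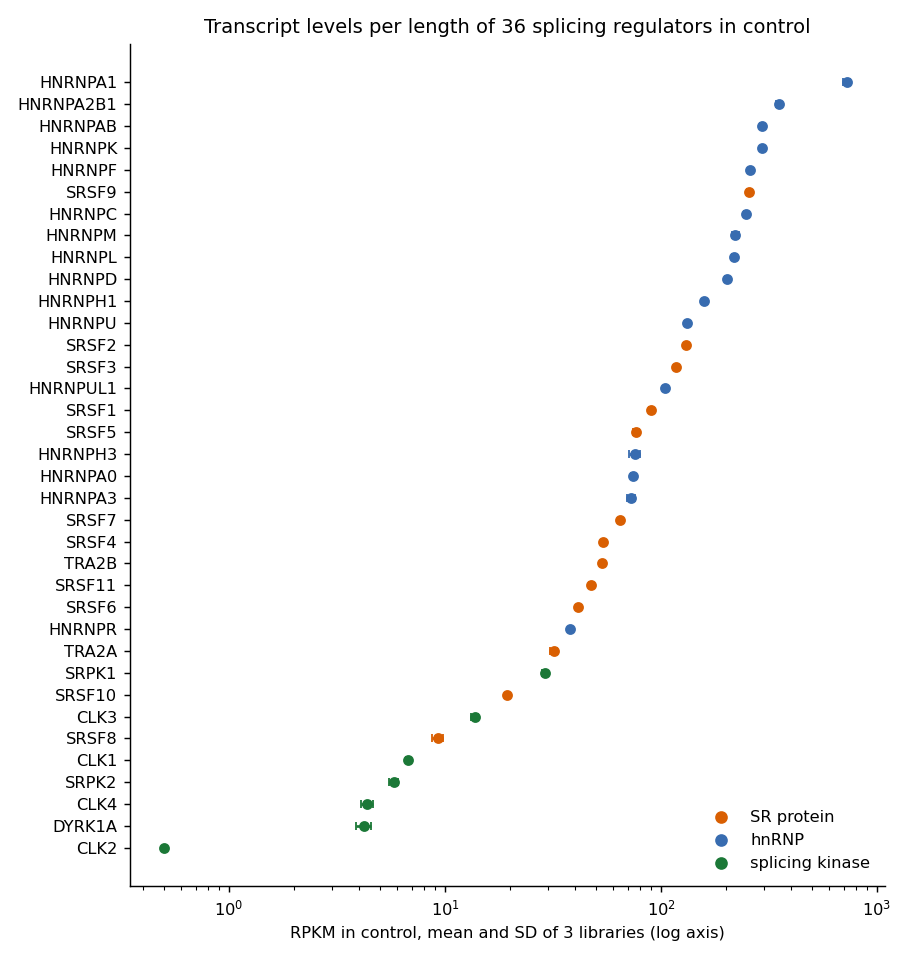
Mean RPKM of the 36 members in the 3 control libraries on a log axis, with SD as bars (none is drawn for CLK2, where 1 library carried the mean), coloured by class. HNRNPA1 stands at 726 RPKM, and all kinases lie at or below the 28.9 RPKM of SRPK1.

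With EC359 alone, CLK1, CLK3, CLK4 and DYRK1A rose 4.39-, 2.04-, 1.97- and 1.82-fold, while 11 of 13 SR protein transcripts fell, to between 56.4% and 93.3% of control. Of all 36 members, 13 were higher and 16 lower than in control, where 30.8% of all tested genes were higher and 30.3% lower. With total counts only, 8 were higher and 21 lower. The median log2 fold change of the members was -0.03, against -0.01 for all genes, and the class medians were -0.43 for SR proteins, 0.03 for hnRNPs and 0.87 for kinases. At least a 2-fold change was reached by 2 members, CLK1 and CLK3, against 6.98% of all genes, and CLK3 was under 2-fold when libraries were scaled by total counts only, which left 1 member. That scaling lowered the median of all genes by 0.13 on the log2 scale for EC359 and by 0.14 for the combination. For the combination against trametinib it was lowered by 0.16, so changes of that size depend on the scaling used. Shares of all genes called were taken with TMM scaling only. Here and below, member counts with total counts only therefore have no such share beside them.

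CLK1 showed the largest change of any member that passed the test. This dual-specificity kinase phosphorylates the serines of SR protein tails, and part of its own transcript is known to stay in the nucleus with retained introns. Its level was 25.1, 25.8 and 25.5 CPM in control and 111, 116 and 108 CPM with EC359. In trametinib libraries it was 27.8, 27.0 and 25.7 CPM, and in the combination 123, 124 and 122 CPM. The libraries with EC359, alone or with trametinib, lay far above all libraries without it, and those with trametinib alone overlapped control. The rise was 4.39-fold with EC359 (log2 2.14, standard error 0.04, adjusted p = 6.5e-46) and 4.83-fold in the combination (log2 2.27, standard error 0.04, adjusted p = 1.5e-47). With trametinib alone the log2 difference was 0.07 (adjusted p = 0.26), and the combination lay 0.14 above EC359 (adjusted p = 0.00048).

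CLK4, the closest relative of CLK1, was about as high with EC359 as in the combination, at lower counts. It stood at 11.8, 10.5 and 10.6 CPM in control, 22.1, 21.8 and 20.6 CPM with EC359, 9.24, 8.24 and 9.93 CPM with trametinib, and 22.2, 21.7 and 21.1 CPM in the combination. The EC359 and combination libraries overlapped each other and lay above all others, and trametinib libraries lay below control. Its log2 fold change was 0.98 with EC359 (standard error 0.07, adjusted p = 7.3e-18), 0.98 in the combination (adjusted p = 2.9e-18) and -0.26 with trametinib (adjusted p = 0.0083). The trametinib call was lost without control replicate 1 (log2 -0.20, adjusted p = 0.074) or trametinib replicate 2 (log2 -0.19, adjusted p = 0.090).

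CLK3, found with the other CLKs in nuclear speckles, rose with EC359 and less so in the combination. Values were 36.1, 38.6 and 38.4 CPM in control, 77.3, 75.4 and 78.3 CPM with EC359, 38.4, 38.0 and 35.4 CPM with trametinib, and 58.6, 57.5 and 62.3 CPM in the combination. The combination libraries fell between control and EC359 without overlapping either. CLK3 rose 2.04-fold with EC359 (log2 1.03, standard error 0.04, adjusted p = 3.4e-29) and 1.58-fold in the combination (log2 0.66, adjusted p = 3.5e-20). The log2 difference of the combination from EC359 was -0.37 (standard error 0.04, adjusted p = 1.6e-11), and that of trametinib from control was -0.02 (adjusted p = 0.81).

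DYRK1A, a kinase encoded on chromosome 21 that phosphorylates splicing factors among many substrates, also rose with EC359. It was at 29.5, 26.8 and 31.4 CPM in control, 55.6, 49.8 and 54.7 CPM with EC359, 33.1, 33.1 and 33.4 CPM with trametinib and 58.7, 51.5 and 57.4 CPM in the combination. Both groups with EC359 overlapped each other and lay above the groups without it. Its log2 fold change was 0.87 with EC359 (standard error 0.05, adjusted p = 1.5e-17), 0.93 in the combination (adjusted p = 7.3e-19) and 0.18 with trametinib (adjusted p = 0.0098, and log2 0.12 with adjusted p = 0.12 without control replicate 2).

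Of the SRPK kinases, which act mainly in the cytoplasm, SRPK1 was lowest in the combination. It was at 125, 125 and 131 CPM in control, 116, 121 and 123 CPM with EC359, 115, 115 and 114 CPM with trametinib, and 90.9, 83.9 and 91.5 CPM in the combination. The combination libraries were the lowest, with no overlap with any other group. The log2 fold change of SRPK1 was -0.08 with EC359 (adjusted p = 0.019, but 0.15 without control replicate 3 and 0.14 without EC359 replicate 1), -0.15 with trametinib (adjusted p = 0.00012) and -0.52 in the combination (standard error 0.03, adjusted p = 5.6e-21). SRPK2 was at 115% of control with EC359 (log2 0.20, adjusted p = 0.0015) and at 113% in the combination (log2 0.18, adjusted p = 0.0040), neither passed the test with total counts only, and the combination call was lost without control replicate 3 (adjusted p = 0.0503). Summed over the 7 kinases, control libraries averaged 256 ± 4.27 CPM, EC359 libraries 411 ± 1.48, trametinib libraries 245 ± 3.44 and combination libraries 377 ± 6.94 (SD, n = 3 each).

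**Figure D2:**
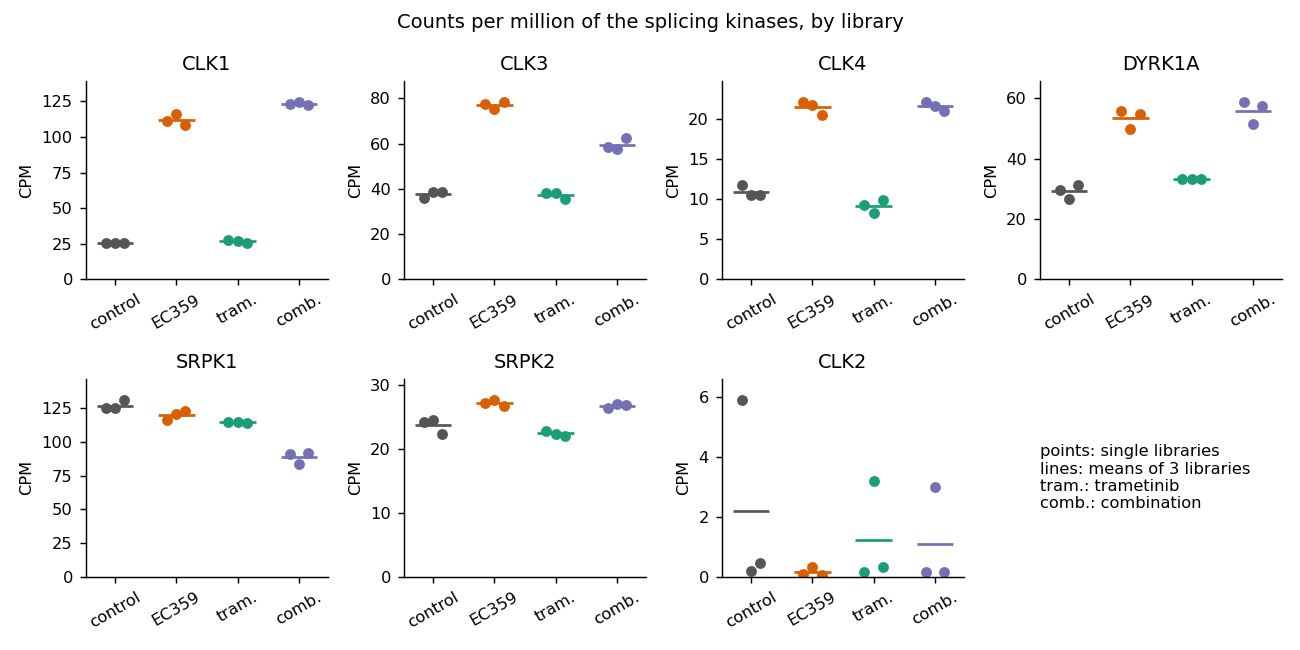
CPM of the 7 splicing kinases in each of the 12 libraries, with the mean of each group as a line and an axis that starts at 0. CLK1, CLK4 and DYRK1A are high in both groups with EC359, CLK3 is intermediate in the combination at 57.5 to 62.3 CPM, and SRPK1 is lowest in the combination at 83.9 to 91.5 CPM.

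Among SR proteins, EC359 lowered 11 and raised 2, SRSF4 and SRSF11, and the class median log2 fold change was -0.43. SRSF4 (log2 0.15) did not pass the test with total counts only, and the other 12 calls were made under that scaling too. The summed level of the 13 transcripts fell from 2834 ± 21.1 CPM in control to 2324 ± 34.3 CPM with EC359, and was 2688 ± 10.6 CPM with trametinib and 2667 ± 28.4 CPM with both agents (SD, n = 3 each). The EC359 libraries, at 2289 to 2358 CPM, lay below all other libraries. Beside this, the summed fibroblast markers, which are almost wholly COL1A1, ranged over 415 to 435 CPM (control), 219 to 232 CPM (EC359), 513 to 525 CPM (trametinib) and 314 to 336 CPM (combination), and their part in the result was not tested.

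SRSF8 had the largest decrease of the class. It was at 42.7, 38.9 and 38.8 CPM in control, 22.1, 22.7 and 23.1 CPM with EC359, 34.5, 34.5 and 33.7 CPM with trametinib and 17.6, 16.1 and 14.8 CPM in the combination. The 4 groups did not overlap, with control highest and the combination lowest. The log2 fold change was -0.82 with EC359 (standard error 0.06, adjusted p = 1.6e-19), -0.23 with trametinib (adjusted p = 0.00045) and -1.31 in the combination (standard error 0.06, adjusted p = 9.0e-28). Its values were whole in all 12 libraries, so no divided read shows in them. Reads with a mapping quality under 2 were not counted, so whole values cannot tell whether SRSF8 shares reads with SRSF2.

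SRSF7, which also promotes mRNA export, was lower in both groups with EC359. Control libraries held 164, 160.0 and 160.3 CPM, EC359 libraries 104, 102 and 104 CPM, trametinib libraries 144, 145 and 148 CPM, and combination libraries 110.1, 113 and 104 CPM. EC359 and combination overlapped each other and lay below the rest. The log2 fold change was -0.64 with EC359 (standard error 0.03, adjusted p = 2.2e-26), -0.15 with trametinib (adjusted p = 4.0e-05) and -0.57 in the combination (adjusted p = 2.4e-24). SRSF1, the best studied SR protein oncogene and described here although it fell short of the 0.5 limit, was at 507 ± 10.6, 377 ± 4.63, 457 ± 2.15 and 366 ± 2.48 CPM in control, EC359, trametinib and combination (SD, n = 3 each).

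SRSF6, known for its control of alternative exons in MAPT and in wound healing genes, fell with EC359 and was back at the control level in the combination. It was at 168, 166 and 166 CPM in control, 113, 116 and 112 CPM with EC359, 153, 153 and 153 CPM with trametinib and 161, 160.3 and 169 CPM in the combination. The EC359 libraries lay below all others, and combination and control overlapped. The log2 fold change was -0.55 with EC359 (standard error 0.03, adjusted p = 2.0e-24), -0.12 with trametinib (adjusted p = 0.00045) and -0.03 in the combination (95% interval -0.08 to 0.03, adjusted p = 0.38). With total counts only, the combination was lower than control (log2 -0.17, adjusted p = 3.8e-07).

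SRSF5, TRA2A and TRA2B are described because of the values they showed, not by the rule for large changes against control. SRSF5, a delayed early gene of growth stimulation, was at 125, 132 and 124 CPM in control, 94.5, 95.3 and 91.7 CPM with EC359, 123, 127 and 127 CPM with trametinib and 163, 169.5 and 174 CPM in the combination. It was thus lowest with EC359 and highest in the combination, while trametinib overlapped control. The log2 fold change was -0.43 with EC359 (standard error 0.03, adjusted p = 4.1e-18), -0.01 with trametinib (adjusted p = 0.83) and 0.41 in the combination (standard error 0.03, adjusted p = 1.5e-18). TRA2A, a sequence-specific activator of exons rich in GAA repeats, was also lowest with EC359 and highest in the combination, at 71.0 ± 2.54, 52.0 ± 2.45, 74.2 ± 1.63 and 85.0 ± 1.82 CPM in control, EC359, trametinib and combination (SD, n = 3 each). Its paralog TRA2B fell by 0.50 on the log2 scale with EC359 (adjusted p = 1.1e-23) and by 0.25 in the combination (adjusted p = 1.4e-12).

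SRSF11, which binds the 3′ splice site factor U2AF, was the 1 SR protein called higher with each treatment. It was at 129.9, 133 and 132 CPM in control, 163, 172 and 166 CPM with EC359, 143, 142 and 142 CPM with trametinib and 204, 208 and 207 CPM in the combination. No group overlapped another. The log2 fold change was 0.34 with EC359 (adjusted p = 2.6e-16), 0.11 with trametinib (adjusted p = 0.0017) and 0.64 in the combination (standard error 0.03, adjusted p = 1.3e-28). SRSF9, the SR protein with the highest level per length, moved less, by -0.11, -0.08 and -0.23 on the log2 scale in the same 3 comparisons, the second of which was not called without control replicate 2 (adjusted p = 0.067) or trametinib replicate 2 (adjusted p = 0.061).

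**Figure D3:**
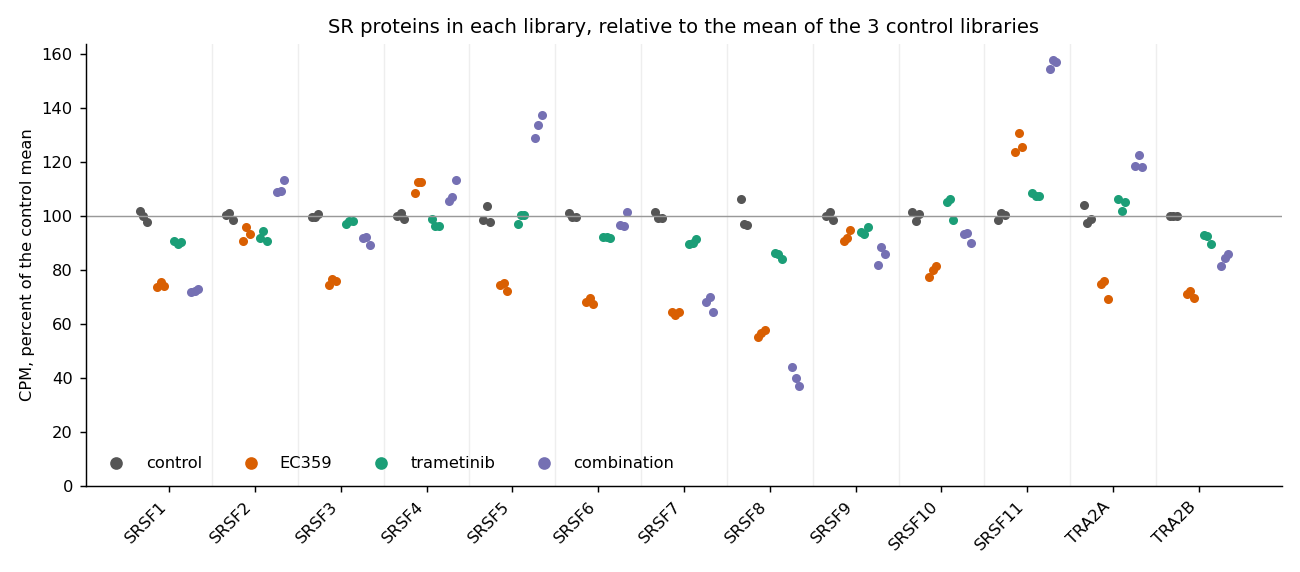
CPM of the 13 SR proteins in each library as a percent of the control mean of the same gene, by group. With EC359 11 genes were called lower than in control, against 30.3% of all tested genes. In the combination SRSF5, SRSF11 and TRA2A are at 133%, 156% and 120% of control on average.

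Trametinib alone moved these genes little. By edgeR it raised 2 members (SRSF11 and DYRK1A, or SRSF11 alone without control replicate 2) and lowered 11, against 13% and 15.2% of all tested genes, and no member reached 2-fold at any p, against 1.43% of all genes called. Of the lower ones 7 were SR proteins, 2 were hnRNPs (HNRNPAB and HNRNPF) and 2 were kinases (CLK4 and SRPK1). The class medians were -0.08 for SR proteins, -0.03 for hnRNPs and -0.08 for kinases on the log2 scale, against 0.00 for all genes. Apart from CLK2, the log2 differences of the members ran from -0.26 in CLK4 to 0.18 in DYRK1A.

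Compared to control, the combination raised 18 members and lowered 13, against 35% and 34.7% of all tested genes. By class it raised 5 and lowered 7 SR proteins, raised 8 and lowered 5 hnRNPs, and raised 5 and lowered 1 of the kinases. With total counts only, 12 members were higher and 17 lower, and the hnRNPs turned from 8 higher and 5 lower to 5 higher and 8 lower. CLK1 and SRSF8 were the 2 members past 2-fold, against 13.1% of all genes.

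The hnRNPs are abundant, and their changes were small. With EC359, 6 of 16 rose, 4 fell and 6 did not pass the test, with log2 fold changes from -0.26 in HNRNPR to 0.30 in HNRNPA1, and the direction depended on the scaling, since with total counts only 3 rose and 9 fell. Against the 30.8% of all tested genes that were higher and the 30.3% that were lower, the counts with TMM scaling lie near the background. HNRNPA1 was at 1456, 1373 and 1361 CPM in control, 1666, 1757 and 1741 CPM with EC359, 1357, 1348 and 1385 CPM with trametinib and 1792, 1888 and 1726 CPM in the combination. Libraries with EC359 lay above those without it, by 0.30 with EC359 (standard error 0.03, adjusted p = 1.8e-08) and 0.37 in the combination (adjusted p = 5.2e-10) on the log2 scale. HNRNPA1 has many processed copies in the genome, and its values held fractions of reads in 11 of 12 libraries, so its level is uncertain. Such fractions were not particular to HNRNPA1, and the values of HNRNPK and HNRNPL held them in 12 of 12 libraries. HNRNPK, which binds poly(C) stretches, and HNRNPL, which binds CA repeats, were also higher in both groups with EC359, at 113% and 115% of control with EC359. With total counts only, HNRNPK was no longer called in the combination (log2 0.022, adjusted p = 0.35), while HNRNPL was (log2 0.16). HNRNPAB and HNRNPR were lower in both, at 87.5% and 83.8% of control with EC359 and 80.0% and 81.3% in the combination, and lower under the other scalings as well.

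HNRNPH1 and HNRNPF, paralogs that bind G-rich tracts, parted in the combination and are named after their values were seen. HNRNPH1 was at 366, 362 and 362 CPM in control, 398, 411 and 385 CPM with EC359, 362, 370.2 and 357 CPM with trametinib and 497, 507 and 507 CPM in the combination. HNRNPF was at 882, 867 and 865 CPM in control, 902, 954 and 936 CPM with EC359, 775, 767 and 794 CPM with trametinib and 704, 693 and 669 CPM in the combination. The combination libraries were the highest of all for HNRNPH1 and the lowest of all for HNRNPF, with no overlap. Against control the log2 fold change in the combination was 0.47 for HNRNPH1 (standard error 0.02, adjusted p = 6.3e-25) and -0.34 for HNRNPF (standard error 0.02, adjusted p = 2.1e-19). With EC359 alone both were called higher, at 0.13 and 0.10, and both fell to about 0 or below with total counts only, at -0.0031 and -0.039. HNRNPU, a nuclear matrix protein, did not pass the test in any comparison with control, with a log2 difference of 0.03 in the combination (95% interval -0.01 to 0.08), and was called lower with total counts only (log2 -0.11, adjusted p = 2.3e-05).

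**Figure D4:**
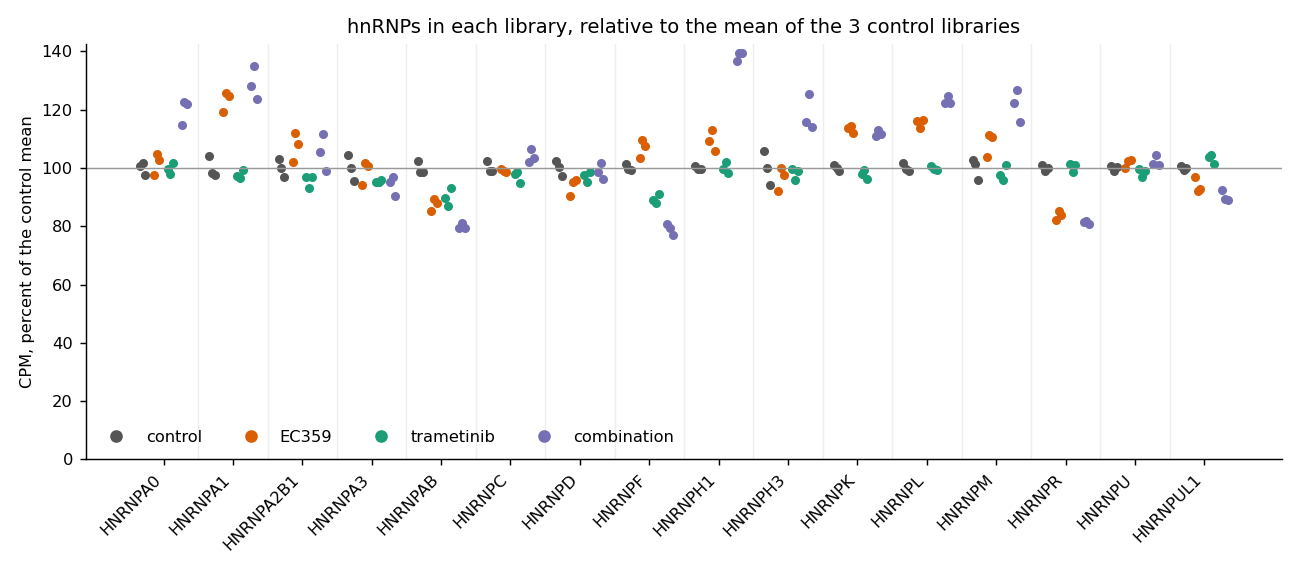
CPM of the 16 hnRNPs in each library as a percent of the control mean of the same gene, by group. HNRNPH1 is at 139% and HNRNPF at 79.1% in the combination, and with total counts only the points of both groups with EC359 lie lower relative to control.

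When trametinib was added to EC359, 9 of 13 SR proteins were higher than with EC359 alone. The combination was above EC359 alone for 17 members and below it for 7, against 24.1% and 25.2% of all tested genes, and no member was called at 2-fold by edgeR or DESeq2 (CLK2 alone passed 2-fold, with an unadjusted p of 0.27), against 3.24% of all genes. In the SR class 2 were lower (SRSF8 and SRSF9) and 2 not called (SRSF1 and SRSF4), with a class median log2 difference of 0.24 against 0.00 for all genes. SRSF5 led with 0.85 (standard error 0.03, adjusted p = 1.1e-30), followed by TRA2A with 0.71 (standard error 0.04, adjusted p = 7.2e-23) and SRSF6 with 0.52 (standard error 0.03, adjusted p = 1.1e-22). SRSF3, a small SR protein that couples splicing to export and 3′ end formation, was 0.27 higher (adjusted p = 9.7e-15), from 319 ± 4.97 CPM with EC359 to 385 ± 6.66 CPM in the combination (SD, n = 3 each). SRSF1 was not called, at -0.04 (95% interval -0.09 to 0.01, adjusted p = 0.14), and SRSF7 at 0.07 had an adjusted p of 0.047, which was lost with DESeq2 (adjusted p = 0.084) and in 11 of the 12 fits that left out 1 library (adjusted p from 0.0510 to 0.31). Among the kinases CLK1 was higher, CLK3 and SRPK1 were lower, and 4 were not called. The hnRNPs were 7 higher and 3 lower, and HNRNPF was the lowest with a log2 difference of -0.43 (adjusted p = 3.0e-23).

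When EC359 was added to trametinib, 21 members were higher and 12 lower, against 35.3% and 32.9% of all tested genes, and with total counts only 12 were higher and 17 lower. CLK1 (log2 2.20), CLK4 (1.24) and SRSF8 (-1.08) were the 3 members past 2-fold, against 11.6% of all genes. SR proteins were 6 higher and 7 lower, hnRNPs 10 higher and 4 lower, which became 5 higher and 8 lower with total counts only, and kinases 5 higher and 1 lower.

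The interaction compares the combination with both single agents' log2 effects added up, and a positive value means that the combination lay above that sum. It was positive for 18 members and negative for 5, against 14.4% and 15.9% of all tested genes, and the members' median was 0.10 against -0.01 for all genes. In the SR class 10 of 13 were above the sum and 1, SRSF8, below it (-0.26, adjusted p = 0.011, and -0.20 with adjusted p = 0.067 without combination replicate 3), with a class median of 0.22, and with total counts only 9 were above and 1 below. The highest were SRSF5 at 0.86 (standard error 0.04, adjusted p = 3.2e-23), SRSF6 at 0.64 (standard error 0.04, adjusted p = 1.6e-19) and TRA2A at 0.64 (standard error 0.05, adjusted p = 1.3e-14). TRA2B (0.37), SRSF2 (0.36) and SRSF3 (0.30) followed. Of the hnRNPs 7 were above the sum, led by HNRNPH1 (0.34) and HNRNPH3 (0.32), and 2 below it, HNRNPF (-0.27) and HNRNPUL1 (-0.10), and with total counts only 5 were above and 2 below. Of the kinases CLK3 (-0.35) and SRPK1 (-0.28) were below the sum and CLK4 (0.27, adjusted p = 0.044) above it, the last lost in 7 of the 12 fits that left out 1 library and with DESeq2 (adjusted p = 0.099). For CLK1 and DYRK1A the departure was 0.06 (95% interval -0.05 to 0.18) and -0.12 (95% interval -0.27 to 0.03), and neither passed the test. The interaction and the comparisons with control use the same control libraries.

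**Figure D5:**
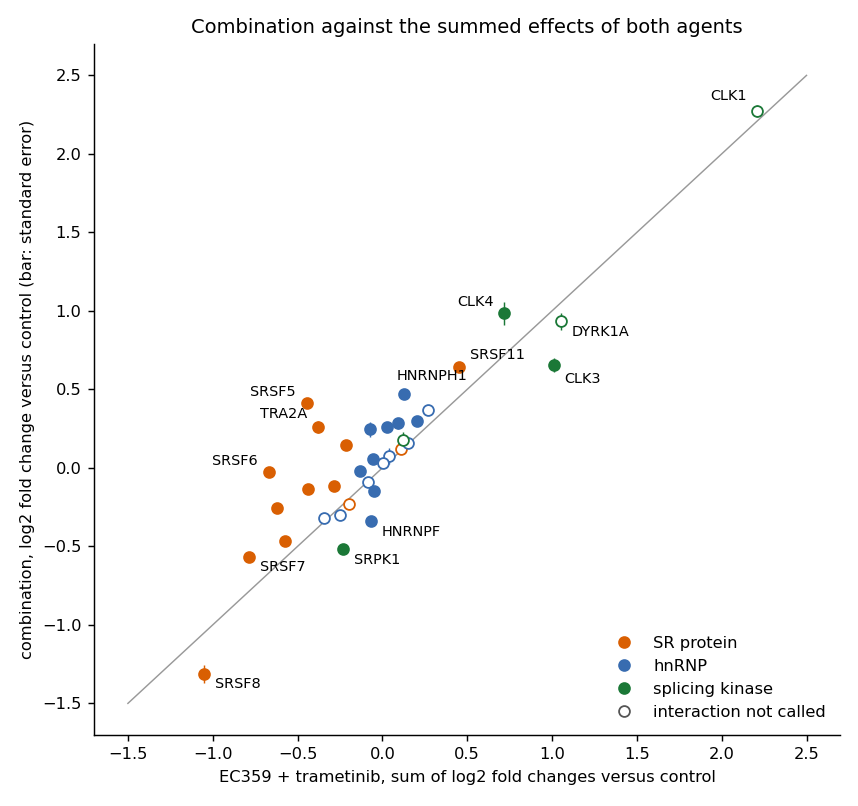
Log2 fold change of the combination versus control (vertical, with standard error) against the sum of the EC359 and trametinib log2 fold changes (horizontal) for the members other than CLK2, and the line where both are equal. Filled points passed the interaction test. SRSF5, SRSF6 and TRA2A lie above the line, with departures of 0.86, 0.64 and 0.64, and CLK3 and SRPK1 lie below it, with -0.35 and -0.28.

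Counts per gene do not separate productive transcripts from those with a poison exon or a kept intron, and in GENCODE 29 most members have both kinds. A transcript of the nonsense-mediated decay type is annotated in 13 of 13 SR protein genes, 11 of 16 hnRNP genes and 5 of 7 kinase genes, 80.6% of the members, against 35.7% of 19936 protein-coding gene names. A retained-intron transcript is annotated in 77.8% of the members against 46.2%. CLK1 has 8, CLK4 7 and CLK3 8 retained-intron transcripts among 15, 15 and 27, while SRSF5 has 8 among 19 and SRSF6 has none among 2. The values above were therefore not separated by form, and how far the annotation used by the authors covers such forms was not tested.

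Related genes outside the set gave the following counts in the same fit, to be read against all tested genes, of which 30.8% were higher and 30.3% lower with EC359, 35% and 34.7% in the combination, and 14.4% and 15.9% above and below the sum of the single agents. These shares do not hold for total counts only, where no share was taken. With that scaling the median of all genes was -0.15 with EC359, -0.14 in the combination and -0.038 for the interaction. Of 25 SR-related proteins 16 were higher and 6 lower with EC359, 17 higher and 7 lower in the combination, and 14 were above and 4 below the sum, while with total counts only these became 9 and 9, 15 and 8, and 13 and 6. RSRC2, an RS-domain protein, was at 80.3 CPM in control and 253 CPM in the combination (log2 1.66, adjusted p = 7.5e-46), and SRRM2, a scaffold of nuclear speckles, and RBM39, a U2AF-like factor, rose by 0.95 and 0.85. Of 15 other hnRNP and related proteins 10 were higher and 3 lower in the combination (6 and 6 with total counts only), among them PTBP2 (log2 1.20) and HNRNPDL (0.64), and HNRNPA1L2 was lower (-0.55). Of 58 core spliceosome proteins, 15 were higher and 23 lower with EC359 and 17 higher and 31 lower in the combination (6 and 36, and 9 and 39, with total counts only), with PRPF4 (-0.99), LSM6 (-0.64) and SNRNP40 (-0.62) the lowest of at least 10 CPM. Of 15 other kinases and phosphatases of splicing factors 10 were higher and 3 lower with EC359, and 7 and 3 in the combination (6 and 6, and 6 and 8, with total counts only), with HIPK2 (0.85) and HIPK3 (0.68) higher and PPP1R8 (-0.73), a regulator of a nuclear phosphatase, lower. Of 15 factors of nonsense-mediated decay and the exon junction complex 6 were higher and 6 lower with EC359, and 6 and 4 in the combination (2 and 8, and 4 and 8, with total counts only), where SMG1, the kinase of UPF1, was higher (0.86) and SMG8 (-0.92) and MAGOHB (-0.54) were lower.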

How the data were processed

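Polyadenylated RNA of OVCAR8 cells was sequenced from stranded libraries as paired 100 bp reads, in 3 libraries for each of 4 groups taken from the labels. The deposited values are estimated counts (expected counts) per gene, without normalization. Per the file headers, the authors ran featureCounts 1.5.0-p1 with an hg38 annotation, counted reads on the reverse strand with a mapping quality of at least 2, and divided reads with several placements or overlapping genes as fractions. The submitters' processing notes name HISAT2 and bcl2fastq without a version. Fractions were rounded. Paralogs and processed copies share reads, so levels of such members are uncertain.

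The 36 members and the related gene lists were chosen with earlier results of these data known, and no p was adjusted over them alone. Members with an adjusted p under 0.05 and an absolute log2 fold change of at least 0.5 in any comparison with control, and the most abundant of each class per length, are described in full. Of each related list at most 3 genes are named, by the largest change in the combination among genes of at least 10 CPM. SRSF1, SRSF2, SRSF3, SRSF5, TRA2A, TRA2B, HNRNPH1, HNRNPF and other members outside this rule were named after their values were seen.

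Analyses used R 4.3.3 and edgeR 4.0.16: filterByExpr (minimum count 10, minimum total 15) left 14865 of 26485 genes, libraries were scaled by TMM (factors 0.947 to 1.06), and all 4 groups shared 1 quasi-likelihood fit with robust dispersions and Benjamini-Hochberg adjustment. The biological coefficient of variation was 3.95%. Member counts lay between 217 and 52335 in a library, apart from CLK2. Results were repeated with DESeq2 1.42.0, with DESeq2 size factors or no TMM factors in edgeR (total counts only), without a filter, with a minimum of 10 counts per library, on the compared groups alone, with a replicate block, without each library in turn, against a 1.5-fold limit (glmTreat) and with unrounded counts. The scripts were checked on simulated data with 200 changed genes. Promoters came from RefSeq (GRCh38.p14), transcript types from GENCODE 29, and figures were drawn with matplotlib.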

Additional observations from a re-analysis of the deposited data

Results flagged for a closer look

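These members departed in the combination from the sum of the log2 effects of EC359 and trametinib, by the interaction test of edgeR with Benjamini-Hochberg adjustment over all genes, so that the effect of EC359 differed with and without trametinib. Above the sum were the SR proteins SRSF5 (log2 0.86), SRSF6 (0.64), TRA2A (0.64), TRA2B (0.37), SRSF2 (0.36), SRSF3 (0.30), SRSF7 (0.22), SRSF11 (0.19), SRSF10 (0.17) and SRSF1 (0.11). SRSF8 (-0.26) was below it. Of the hnRNPs, HNRNPH1 (0.34), HNRNPH3 (0.32), HNRNPA0 (0.24), HNRNPM (0.19), HNRNPD (0.12), HNRNPC (0.11) and HNRNPL (0.094) were above the sum, and HNRNPF (-0.27) and HNRNPUL1 (-0.10) below it. Of the kinases, CLK4 (0.27) was above the sum, and CLK3 (-0.35) and SRPK1 (-0.28) below it. For SRSF2, SRSF5 and TRA2A the EC359 libraries lay below control and the combination libraries above it, but with total counts only the combination difference of SRSF2 from control was 0.0055 (adjusted p = 0.85). With that scaling the interaction calls of SRSF1 (adjusted p = 0.064), HNRNPD (0.060), HNRNPL (0.12) and CLK4 (0.078) were lost. With 3 libraries per group, some of these calls turned when 1 library was left out. CLK4 was lost in 7 of the 12 such fits and SRSF8 without combination replicate 3 (adjusted p = 0.067). The calls of HNRNPD, HNRNPL, HNRNPM and HNRNPUL1 were each lost in at least 1 fit, as given below.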

How the results depend on the processing

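With total counts only, the members' median log2 fold change became -0.17 with EC359, -0.013 with trametinib, -0.072 in the combination, -0.044 for the combination against trametinib and 0.074 for the interaction, 8 members were higher with EC359 and 12 for the combination against trametinib, and 1 passed 2-fold with EC359. It turned the sign of HNRNPF (-0.039), HNRNPH1 (-0.0031) and HNRNPM (-0.014) with EC359, SRSF4 (-0.019) and HNRNPC (-0.082) in the combination, and SRSF4 (-0.0016), SRSF6 (-0.072), HNRNPA2B1 (-0.023), HNRNPC (-0.065) and HNRNPU (-0.11) for the combination against trametinib, because the reference level of all genes moved. Tested against 1.5-fold, 4 members were higher and 1 lower with EC359, 0 and 0 with trametinib, 4 and 1 in the combination, 2 and 0 for the combination against EC359, 4 and 1 against trametinib, and 1 and 0 for the interaction. No share of all tested genes was taken for the 1.5-fold test, so its counts cannot be set against a background. The median was -0.013 with EC359 when only the groups compared were fitted, and 0.14 for the combination against trametinib with at least 10 counts in every library, where CLK2 was not tested.

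With each library left out in turn, the median ranged from -0.053 to 0.00076 with EC359, -0.055 to -0.024 with trametinib, 0.038 to 0.11 in the combination, 0.037 to 0.083 for the combination against EC359, 0.11 to 0.16 against trametinib and 0.085 to 0.12 for the interaction. Members higher with trametinib were 1 to 2, members below the sum were 3 to 5 (3 without combination replicate 3), members past 2-fold were 2 to 3 with EC359 and in the combination, and no member value changed sign among those called. Interaction calls were lost for HNRNPD and HNRNPL without control replicate 1, HNRNPL without EC359 replicate 2, HNRNPM without combination replicate 1, and HNRNPUL1 without EC359 replicate 1, trametinib replicate 2 or combination replicate 3 (adjusted p from 0.0502 to 0.077). Other small changes near the threshold turned, mostly in HNRNPA2B1, HNRNPA3, HNRNPC, HNRNPUL1 and SRSF7.

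Replicate numbers did not pair the libraries: deviations of same-numbered libraries correlated with r from -0.067 to 0.030, and 1 of 12 libraries was closest to its own number. With the replicate number as a block, 1 member call of all 6 comparisons was lost, SRSF7 for the combination against EC359 (log2 0.07, adjusted p = 0.053), and 0 were gained. CLK2 and CLK4 have the fewest reads and the widest errors.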
